A study of Mus musculus with 14 samples.

Results

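Ribosomal protein genes encode the protein parts of the cytosolic ribosome. The members described here are the 86 symbols, of 10980 in the expression table, that begin with Rpl or Rps and a digit or are Rplp0, Rplp1, Rplp2 or Rpsa. Symbols of the S6 kinases (Rps6k) and symbols that contain "-ps", a pseudogene suffix, were left out. The rule uses names alone and no measured value, but the members were chosen with earlier results of these data known. By role the members comprised 46 large subunit genes, among them the 3 stalk genes Rplp0, Rplp1 and Rplp2, and 31 small subunit genes. These 77 are called core members below. A further 8 symbols are paralogues or tissue forms (Rpl3l, Rpl7l1, Rpl22l1, Rpl36al, Rpl39l, Rps4l, Rps27l and Rps27rt), and 1, Rps19bp1, encodes a protein that binds RPS19 and is not itself a ribosomal protein.

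The cytosolic ribosome has a small subunit, which decodes the messenger RNA, and a large subunit, which forms the peptide bond. Its proteins are made in matched amounts and their mRNAs are among the most abundant in most cells. Mammalian ribosomal protein mRNAs are known for a terminal oligopyrimidine tract, a C followed by pyrimidines at the extreme 5′ end, through which mTOR signalling and LARP1 govern their translation, so their protein output can change with no change in mRNA level. UV light damages RNA as well as DNA, and ribosomes stalled on damaged mRNA signal through the kinase ZAK in human and mouse cells. Free RPL5 and RPL11 bind MDM2 and so stabilise p53.

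RNA-seq was made from full thickness back skin of wild type C57BL/6 mice whose fur had been removed. After irradiation with a mixed UV source, skin was taken at 0.5, 2, 6, 12 and 24 h, with 2, 3, 3, 2 and 2 libraries, and unirradiated skin (0 h) gave 2 libraries. Every group shares the strain, the genotype and the depilation, and the unirradiated libraries analysed here are all of 0 h. Whether replicate libraries are of separate mice is not in the labels, so p-values measure the spread between these libraries, which may be technical. Basal keratinocyte, suprabasal keratinocyte and fibroblast markers were above 0 in every library. Levels are FPKM, fragments scaled to transcript length and to mapped fragments, a scale meant for comparing levels between genes. How the members ranked by level differed between the library sets described next, so such comparisons depend on the set. In whole skin, fewer cells of a type and less RNA per cell cannot be told apart.

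The libraries fall into 3 sets by the number format and headers of their columns, and the members' levels differ between these sets far more than between times. Set 1 covers all 6 time points, set 2 all but 0.5 h, and set 3 the times 0.5, 2 and 6 h. Within each set, values can be compared across time, and this is done first below. Depth could be recovered as whole reads in sets 2 and 3, at 12327907 to 15550419 reads per library, of which the members held 670951 to 1537362 (5.13 to 9.89%). The median member had 7383 to 16902 reads per library there, so counting error is small for most members. Depth in set 1 is unknown.

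The sequence that the class is known for is shown first, in members of both subunits whose annotated start holds it. The lines give 15 bases before and 15 after an annotated RefSeq start (GRCm38.p6, 5′ to 3′), with the tract from the start site on in capitals. Rps6 encodes the S6 kinase substrate of the small subunit, Rps10 and Rps18 other small subunit proteins, Rplp2 a stalk protein, and Rpl15, Rpl35 and Rpl38 large subunit proteins.
Rps6 (chr4:86857353-86857382, minus strand): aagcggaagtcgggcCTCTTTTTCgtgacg
Rps10 (chr17:27635230-27635259, minus strand): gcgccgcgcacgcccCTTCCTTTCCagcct
Rps18 (chr17:33955651-33955680, minus strand): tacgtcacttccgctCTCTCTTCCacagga
Rplp2 (chr7:141447636-141447665, plus strand): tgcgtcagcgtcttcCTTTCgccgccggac
Rpl15 (chr14:18270972-18271001, minus strand): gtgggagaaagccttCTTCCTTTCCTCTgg
Rpl35 (chr2:39005117-39005146, minus strand): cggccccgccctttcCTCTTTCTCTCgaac
Rpl38 (chr11:114668565-114668594, plus strand): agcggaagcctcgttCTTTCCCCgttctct
The 7 windows above were chosen because they hold the tract at the annotated start. The next 3 are of paralogues whose values are given in detail further on, at their first annotated start. None of the 3 has the tract at the start itself, so they are in lower case, but the Rps27l window holds a C and 4 further pyrimidines within 5 bases of it.
Rps27l (chr9:66946071-66946100, plus strand): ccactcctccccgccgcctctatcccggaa
Rpl36al (chr12:69184053-69184082, minus strand): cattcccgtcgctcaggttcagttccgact
Rpl3l (chr17:24727811-24727840, plus strand): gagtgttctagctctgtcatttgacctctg

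RefSeq windows of 300 bases (250 before the start to 50 after) matched 64 of the 86 members by symbol, 56 of them core members. An annotated start that is a C followed by at least 4 pyrimidines was found in 12 of 56 core members (21.4%), against 247 of the 8435 genes of the expression table that have a window (2.93%). Allowing the tract to begin within 5 bases of the annotated start gave 44.6% of core members and 23.6% of all genes with a window. Of the 8 windows of paralogues and Rps19bp1, 1 (12.5%) held the tract at the start and 3 (37.5%) within 5 bases, so the windows printed do not show a difference between paralogues and core. The letters CCGGAAG, the core of the site bound by ETS factors such as GABPA, were present on either strand in 41.1% of core windows and 20.3% of all windows. ATGGCGG, a motif known for YY1, was present in 14.3% of core windows and 9.65% of all. Genes with several annotated starts were counted once if any window held the motif, and the motifs may overlap each other. A match describes these letters only.

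The members made up a large share of the FPKM listed. Summed over the 86 symbols, they took 20.3, 21.4, 21.04, 23.9, 20.1 and 19.8% of the listed FPKM at 0, 0.5, 2, 6, 12 and 24 h in set 1. In set 2 the share was 14.1, 15.5, 16.7, 17.5 and 14.8% at 0, 2, 6, 12 and 24 h, and in set 3 it was 22.7, 21.8 and 19.0% at 0.5, 2 and 6 h. The share was therefore highest at 6 h in set 1, at 12 h in set 2 and at 0.5 h in set 3. These are shares of FPKM, which is scaled to length, and of the reads recovered in sets 2 and 3 the members held 5.13 to 9.89%. The set 1 sums include 4157 to 5601 FPKM of Rps27rt, which sets 2 and 3 list at 0. The sum over large subunit members was between 1.29 and 1.35 times that over small subunit members in all 14 libraries.

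**Figure D1:**
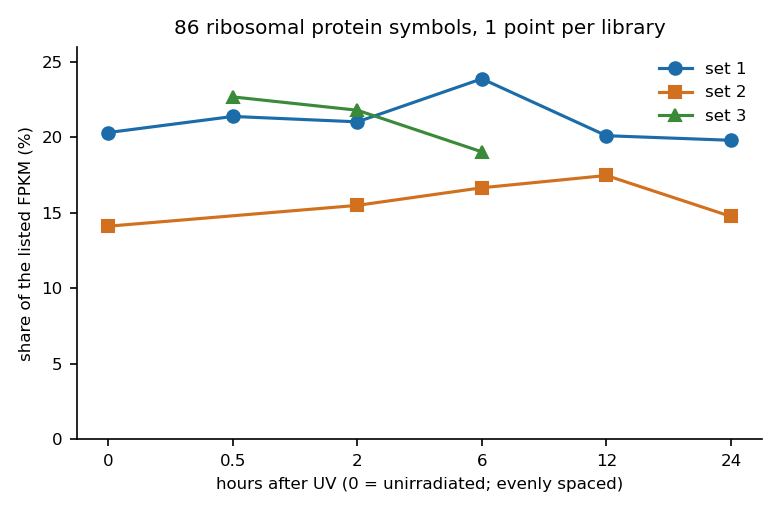
Share of the listed FPKM (y axis, %) taken by the 86 ribosomal protein symbols in each library, against hours after UV (x axis, evenly spaced, 0 is unirradiated skin); each point is 1 library and lines join the libraries of a set. Set 1 is highest at 6 h (23.9%), set 2 at 12 h (17.5%) and set 3 at 0.5 h (22.7%).

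The course of single core members is given next. Rplp0, the stalk base protein that is often used as a reference transcript, measured 2715, 2882, 3094, 3478, 2751 and 2586 FPKM at 0, 0.5, 2, 6, 12 and 24 h in set 1. In set 2, at 0, 2, 6, 12 and 24 h, Rplp0 measured 1699.6, 1906, 2188, 2216 and 1799.7 FPKM, and in set 3, at 0.5, 2 and 6 h, 3570.0, 4083 and 3596 FPKM. The 0 h library was not the lowest of set 1, the 24 h library was, and both UV 6 h and UV 12 h were above 0 h in set 2.

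Rps6 measured 1045, 1122, 1115, 1209, 1037 and 1045 FPKM in set 1, 921, 1049, 1155, 1219.9 and 959.6 FPKM in set 2 and 1215, 1263 and 1158 FPKM in set 3 at the same times. Rps19, a small subunit assembly protein whose loss causes Diamond-Blackfan anaemia in humans, measured 856, 955, 996, 1210.0, 961 and 882 FPKM in set 1, 472, 552, 638, 724 and 546 FPKM in set 2 and 1073, 1052 and 807 FPKM in set 3. In both genes the highest library of set 1 was that of 6 h and the highest of set 2 that of 12 h, while the lowest of set 3 was that of 6 h. Rps14, another small subunit protein, measured 1953, 2476, 2494, 3014, 2057 and 2225 FPKM in set 1, 1050.4, 1242, 1325, 1306 and 976 FPKM in set 2 and 2323, 2690.0 and 1941 FPKM in set 3, so that its 24 h library was the lowest in set 2.

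Next come the stalk proteins P1 and P2 and the laminin receptor RPSA, a small subunit protein. Rplp1 measured 3169, 3429.7, 3622, 4555, 3284 and 3303 FPKM in set 1, 1001, 1306, 1355, 1492 and 1225 FPKM in set 2 and 3372, 3804 and 2779 FPKM in set 3. Rplp2 measured 1806, 2096, 2387, 2733, 2114 and 2006 FPKM in set 1, 827, 917, 1024, 1195 and 912 FPKM in set 2 and 1889.6, 1938 and 1435 FPKM in set 3. Rpsa measured 1148, 1198, 1232, 1451, 1108 and 1165 FPKM in set 1, 808, 940.1, 986, 986 and 856 FPKM in set 2 and 1977, 2296 and 1564 FPKM in set 3. All 3 genes were highest at 6 h in set 1 and at 2 h in set 3. In set 2 Rplp1 and Rplp2 were highest at 12 h, and Rpsa was level at 6 and 12 h.

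Rpl5 and Rpl11, which bind MDM2 as free proteins, differed from each other in how closely they kept to this course. Rpl11 measured 1755, 2025, 1979, 2269, 1765 and 1828 FPKM in set 1, 869, 1004, 935, 1107 and 868 FPKM in set 2 and 1846, 1994 and 1276 FPKM in set 3. Rpl5 measured 503, 557, 518, 563, 503 and 509.8 FPKM in set 1, 479.5, 505, 555, 596 and 466 FPKM in set 2 and 459.7, 396 and 449 FPKM in set 3. In set 3 the lowest library was that of 6 h for Rpl11 and that of 2 h for Rpl5. Rps27a, which encodes a ubiquitin fused to a small subunit protein, measured 1017, 1159, 1237, 1471, 1177 and 1160.1 FPKM in set 1, 606, 702, 794, 873 and 657 FPKM in set 2 and 1048, 801 and 746 FPKM in set 3.

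Counted over all members, each library was set against the 0 h library of its own set, on log2(FPKM + 1). In set 1 the median change was 0.17, 0.19, 0.38, 0.06 and 0.05 at UV 0.5, 2, 6, 12 and 24 h, and in set 2 it was 0.17, 0.28, 0.40 and 0.09 at UV 2, 6, 12 and 24 h. All 86 members were higher at UV 6 h than at 0 h in set 1 and 81 were in set 2, as were 44.7 and 47.7% of all genes. Of the 695 other genes with a mean of at least 100 FPKM, 77.1% were higher in set 1 and 68.3% in set 2. Members higher than at 0 h in both sets numbered 78, 81, 59 and 54 at 2, 6, 12 and 24 h. Of all 10980 genes, the share higher in both sets was 26.7, 32.2, 28.6 and 32.9% at those times. These 4 counts share the same 2 unirradiated libraries. At 2 h Rpl7l1 was the 1 member lower in both sets, and at 24 h Rpl3, Rpl23, Rps16 and Rps4l were.

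**Figure D2:**
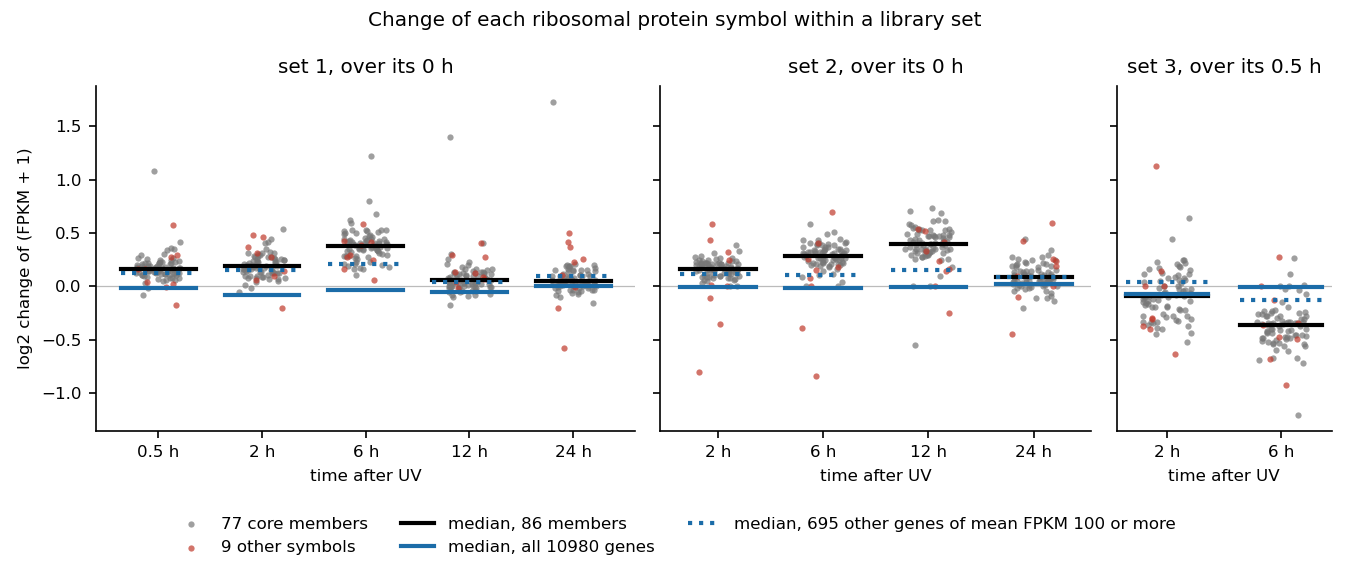
Change of log2(FPKM + 1) of each member (y axis) at each time (x axis) over the 0 h library of its set, or over the 0.5 h library in set 3; grey points are the 77 core members, red points the other 9 symbols, and lines are medians of the members (black), of all genes (blue) and of the 695 other genes of mean FPKM 100 or more (dotted blue). The member median is above that of all genes in every library of sets 1 and 2, and lies below it in both libraries of set 3.

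The sets did not share a time of highest level. In set 1, 75 of 86 members were highest at 6 h, and 52 were lowest at 0 h. In set 2, 73 of the 85 members listed above 0 were highest at 12 h, and 66 were lowest at 0 h. In set 3, which has no 0 h library, 56 of 84 were highest at 0.5 h and 70 were lowest at 6 h. Highest and lowest times were not counted over other genes, so these counts do not show what is particular to the members. Set against its own 0.5 h library, the members' median in set 3 was -0.10 for the 2 h library and -0.37 for the 6 h library. UV 6 h against UV 2 h accordingly had 79 members higher in set 1 (median 0.20), 72 higher in set 2 (0.12) and 74 lower in set 3 (-0.27). Of all genes, 57.8% were higher in set 1, 49.7% higher in set 2 and 44.5% lower in set 3. For UV 24 h against UV 6 h, both sets that hold these times pointed the same way, with 75 members (and 29% of all genes) lower in both.

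Abundant transcripts outside the members were set against 0 h in the same way. The 695 other genes with a mean of at least 100 FPKM had medians of 0.12, 0.16, 0.21, 0.04 and 0.10 at 0.5, 2, 6, 12 and 24 h in set 1 and 0.12, 0.10, 0.15 and 0.09 at 2, 6, 12 and 24 h in set 2. At 24 h the members' median was 0.05 in set 1, below that of these genes, and 0.09 in set 2, about level with it. In set 3 the medians of the 695 genes were 0.04 at 2 h and -0.13 at 6 h, over the 0.5 h library. The medians of all 10980 genes were between -0.09 and 0.02 in these libraries. Skeletal muscle markers also varied: the summed FPKM of 24 listed markers, none of them at 0, was 6507, 7409, 8011, 10346, 7330 and 4926 over the times of set 1, 4206, 7508, 6836, 5274 and 4506 over those of set 2, and 3867, 9509 and 6378 over those of set 3. The part of muscle in the members' values was not tested.

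No member passed the test at any time. limma, fitted on log2(FPKM + 1) of all genes without the library set, called 0 of 86 members in any comparison with 0 h, between UV 6 h and UV 2 h, between UV 24 h and UV 6 h, or for any change over time, at a Benjamini-Hochberg adjusted p of 0.05. It called 0% of all genes in each of the 7 comparisons of times and 0.00911% for any change over time. At an unadjusted p of 0.05 it had 1 member higher at 0.5 h (Rpl22), where 0.829% of all genes were, and 1 lower at 24 h than at 6 h (Rpl3l), where 2.18% were.

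With the library set as a term the test also called 0 of 86 members in each of these comparisons. The share of all genes that it called in either direction against 0 h was 0.1, 2.79, 4.32, 3.81 and 2.19% at 0.5, 2, 6, 12 and 24 h, and it was 2.09% for UV 6 h against UV 2 h, 3.11% for UV 24 h against UV 6 h and 4.92% for any change over time. At an unadjusted p of 0.05, 5 members were higher at 0.5 h (Rpl21, Rpl22, Rpl36al, Rpl38 and Rps27l), where 3.24% of all genes were. Likewise 2 were higher at 2 h (Rpl3l and Rps19bp1), 1 at 6 h (Rps3a1), 2 at 12 h (Rpl36al and Rpl7l1) and 3 at 24 h (Rpl26, Rpl36al and Rps27l), where 5.24, 7.81, 5.8 and 4.5% of all genes were. For UV 24 h against UV 6 h 1 was lower (Rpl3l), as were 7.77% of all genes, and for any change over time there were 2 (Rpl3l and Rpl7l1), against 25.6% of all genes. The members' lowest adjusted p over the 5 comparisons with 0 h was 0.143, that of Rpl3l at 2 h.

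Markers of other skin cell types also differed from 0 h at these times in the fit with the set. That fit called 0.1, 2.79, 4.32, 3.81 and 2.19% of all genes at 0.5, 2, 6, 12 and 24 h. Of 8 fibroblast markers 1, 3, 2, 4 and 4 fell at 0.5, 2, 6, 12 and 24 h (medians -0.98, -1.01, -0.69, -1.25 and -0.74), among them Lum and Col1a2. Their summed level was 709 to 1784 FPKM in UV libraries, against 1652 and 4024 FPKM at 0 h. Of 10 macrophage and dendritic cell markers 4, 7, 5, 6 and 6 fell (medians -1.20, -1.0, -0.92, -1.52 and -1.22), among them Cd74 and H2-Aa, with sums of 198 to 936 FPKM in UV libraries, against 674 and 826 FPKM at 0 h. Of 8 basal keratinocyte markers 0, 4, 4, 4 and 2 fell (medians -0.30, -0.49, -0.64, -0.56 and -0.32), among them Col17a1, with sums of 2366 to 5396 FPKM in UV libraries, against 4709 and 3294 FPKM at 0 h. These UV ranges pool all 3 sets, and set 3 has no 0 h library, so the ranges do not show changes within a set. S100a8 and S100a9, known from neutrophils and also from stressed keratinocytes, both rose at 12 and 24 h. Smaller numbers of suprabasal, sebocyte and lymphocyte markers fell at some times. The 12 hair follicle markers had medians of 0.06, 0.28, 0.39, 0.39 and 0.24, and Krt28 rose at 2 and 12 h. Without the set 0 markers were called at any time. The part of these cell types in the members' values was not tested.

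The sizes in these fits are set here beside their standard errors. With the set as a term, the median change of the 86 members against 0 h was 0.29, 0.23, 0.23, 0.22 and 0.07 at 0.5, 2, 6, 12 and 24 h, and the median standard error of a member lay between 0.18 and 0.20. Set 3, which has no 0 h library, enters these values only through its other times. Within set 1, the median over 0 h was 0.17 at 0.5 h and 0.38 at 6 h. Within set 2 it was 0.28 at 6 h, and set 3 had -0.37 at 6 h over its 0.5 h library. The order of times in this fit therefore differs from that seen within sets. Medians of all genes in the fit with the set were -0.01, -0.06, -0.02, -0.03 and 0.02. Large and small subunit members had nearly equal medians, 0.23 and 0.24 at 6 h and 0.22 and 0.23 at 12 h, while the stalk genes had 0.32 and 0.31. Without the set the member medians were 0.60, 0.26, 0.27, 0.22 and 0.07. The 0.5 h median is more than 1.5 times higher without the set, and set 3 has a 0.5 h library and no 0 h library. Quantile normalization, with the set as a term, brought the member medians to 0.14, 0.05, 0.09, 0.08 and 0.0034. Medians of all genes were then 0.04, 0.02, 0.02, 0.03 and 0.03, so that at 24 h the members lay below all genes.

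For single core members, the fit with the set gave Rps14 a change of 0.36 ± 0.19 (SE) at 6 h (limma adjusted p = 0.309), Rps27a 0.36 ± 0.18 at 6 h (adjusted p = 0.278), Rps3a1 0.35 ± 0.15 at 6 h (adjusted p = 0.206) and Rps19 0.39 ± 0.20 at 12 h (adjusted p = 0.333). Without the set these were 0.47 ± 0.52, 0.28 ± 0.41, 0.27 ± 0.25 and 0.39 ± 0.45, each at an adjusted p of 0.980 or 1. Rps3a1 belongs to the small subunit and measured 1299, 1415, 1421, 1662, 1301 and 1352 FPKM in set 1, 1204, 1377, 1596, 1671 and 1234 FPKM in set 2 and 1331, 1161 and 1305 FPKM in set 3. Its UV 6 h library was above 0 h in both sets that have a 0 h library.

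Other core members with the largest fitted changes of their subunit at a time, with the set in the fit, did not pass either. At 0.5 h these were Rpl36a of the large subunit (0.50, limma adjusted p = 0.520) and Rps21 of the small one (0.41, adjusted p = 0.586). In set 1, the only set with both 0 and 0.5 h, the changes were 0.17 for Rpl36a and 0.19 for Rps21. The UV 0.5 h library of set 3 has no 0 h library of its set beside it. At 6 h Rpl12 had 0.35 (adjusted p = 0.285), and at 12 h Rpl24 had 0.40 (adjusted p = 0.306), both in the large subunit. Rps13, in the small subunit, had 0.31, 0.36 and 0.17 at 2, 12 and 24 h, and Rps26 0.19 at 24 h. Rpl37rt, a retrocopy of Rpl37, had 0.41, 0.36 and 0.43 at 2, 6 and 12 h, on levels of 10.3 to 62.7 FPKM. Without the set Rpl37rt had 0.97 and 0.92 at 2 and 6 h, and its levels in set 3, which has no 0 h library, were the highest. Without the set Rpl36a had 0.68 and Rps21 0.72 at 0.5 h, Rpl12 had 0.46 at 6 h and Rps13 0.39 at 2 h. Of the other core members chosen for description, Rps3 measured between 413 and 1021 FPKM over the 14 libraries, Rpl3 between 783 and 1509, Rpl10 between 1245 and 2443, Rpl10a between 766 and 1718, Rpl13a between 714 and 1894, Rpl23 between 575 and 992 and Rps15 between 1378 and 3676 FPKM.

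Rpl22, a large subunit protein that also binds viral and cellular RNA, measured 153, 178, 167, 183, 154 and 157 FPKM in set 1, 124, 145, 153, 159 and 128 FPKM in set 2 and 242, 178 and 151 FPKM in set 3. In set 1 the UV 0.5 h library, at 178 FPKM, was above that of 0 h, at 153 FPKM. The UV 0.5 h library of set 3, at 242 FPKM, has no 0 h library of its set beside it. The change at 0.5 h was 0.46 ± 0.17 with the set (limma adjusted p = 0.414) and 0.58 ± 0.23 without it (adjusted p = 0.684).

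The paralogues and tissue forms kept less closely to the core course. Over the 14 libraries, after the mean of each set was subtracted, the median correlation with the mean core profile was 0.93 for core members, which are themselves part of that mean, and 0.50 for the 8 paralogues. Within the core, 67 of 77 members had a correlation above 0.8, among them Rps15 (0.99) and Rpl13a (0.98). The lowest core values were those of Rpl30 (0.01), Rpl26 (0.10), Rpl36 (0.42), Rpl37rt (0.54) and Rpl4 (0.57). Among paralogues the values were 0.71 for Rps27l, 0.69 for Rpl36al, 0.64 for Rps4l, 0.54 for Rps27rt, 0.46 for Rpl3l, 0.38 for Rpl22l1, 0.21 for Rpl7l1 and -0.15 for Rpl39l. Rps27rt, Rpl26 and Rpl30 were listed at or near 0 throughout sets 2 and 3, so their correlations over 14 libraries say little about their course. In set 1 Rps27rt changed by 0.43 at 6 h, where the core median was 0.38. Rpl39l had 19 to 55 reads per library in sets 2 and 3. Rpl37rt, a retrocopy, was counted with the core, and Rps27rt with the paralogues. The libraries of a set may share their processing, which no label states, so all these correlations are descriptions.

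Rps27l, a paralogue of Rps27 that p53 induces in human cells, lies at chr9:66946086-66949516 (GENCODE M21, GRCm38, plus strand). It measured 246, 276, 272, 323, 268 and 329 FPKM at 0, 0.5, 2, 6, 12 and 24 h in set 1 and 87.1, 118, 115, 127 and 132 FPKM at 0, 2, 6, 12 and 24 h in set 2. In set 3 it measured 302, 234 and 159 FPKM at 0.5, 2 and 6 h. The 24 h library was the highest of both sets that have one, where the core had come back near its 0 h level. At UV 24 h against 0 h the change was 0.51 ± 0.22 with the set (limma adjusted p = 0.382) and 0.51 ± 0.67 without it (adjusted p = 1).

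Rpl36al, a paralogue of Rpl36a at chr12:69182731-69184083 (minus strand), had its lowest library at 0 h in sets 1 and 2. It measured 422, 629, 579, 563, 558 and 596 FPKM in set 1, 231, 232, 261, 308 and 262 FPKM in set 2 and 282, 229 and 200.3 FPKM in set 3. All 5 UV libraries of set 1 lay between 558 and 629 FPKM, against 422 FPKM at 0 h. In set 2 the UV 2 h library, at 232 FPKM, was level with the 0 h library, at 231 FPKM. The change with the set was 0.55 ± 0.16 at 0.5 h (limma adjusted p = 0.275), 0.41 ± 0.15 at 12 h (adjusted p = 0.172) and 0.34 ± 0.15 at 24 h (adjusted p = 0.382). Its 3 values without the set were 0.43, 0.41 and 0.34, each ± 0.67.

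Rpl3l, the striated muscle form of Rpl3, at chr17:24727820-24736143 (plus strand), measured 18.4, 18.3, 23.1, 28.1, 19.6 and 12.0 FPKM in set 1, 11.6, 17.9, 19.4, 14.8 and 12.4 FPKM in set 2 and 12.9, 29.4 and 15.9 FPKM in set 3. Its highest library was that of 6 h in sets 1 and 2 and that of 2 h in set 3. The change was 0.65 ± 0.23 at 2 h (limma adjusted p = 0.143) and 0.49 ± 0.23 at 6 h (adjusted p = 0.239) with the set, and 0.62 ± 0.30 and 0.46 ± 0.30 without it. For UV 24 h against UV 6 h it was -0.73 ± 0.23 with the set (adjusted p = 0.109) and -0.70 ± 0.30 without it (adjusted p = 0.925). Without the 2 h library or the 6 h library of set 3 this last comparison passed, at -0.85 (adjusted p = 0.0302) and -0.88 (adjusted p = 0.0355). The muscle markers, whose sums are given above, were also highest at 6 h in set 1 and at 2 h in set 3, and their highest library in set 2 was that of 2 h. In the fit with the set the markers' medians were 0.70 (2 h) and 0.60 (6 h), with 23 of 24 above 0 at each time and 0 called by limma at any time. Their part in the Rpl3l values was not tested.

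Rpl7l1, a protein related to RPL7 that acts in ribosome assembly, measured 35.3, 36.3, 30.6, 36.9, 42.9 and 41.5 FPKM in set 1, 40.4, 37.3, 42.8, 47.7 and 47.9 FPKM in set 2 and 65.9, 52.96 and 51.5 FPKM in set 3. Its 2 h library was the lowest of sets 1 and 2, where nearly all core members were above 0 h, and the 12 and 24 h libraries were the highest of both sets. The change at 12 h was 0.25 ± 0.11 with the set (limma adjusted p = 0.262) and 0.25 ± 0.31 without it (adjusted p = 1). Without the 6 h library of set 3, the fit with the set called Rpl7l1 for any change over time (adjusted p = 0.0402).

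Rpl22l1, the paralogue of Rpl22, measured 200.3, 245, 242, 238, 211 and 259 FPKM in set 1, 114, 135, 137, 126 and 106 FPKM in set 2 and 101, 76.2 and 92.1 FPKM in set 3, with its highest library at 24 h in set 1 and its lowest at 24 h in set 2. Rps4l, related to Rps4x, measured 39.0, 43.9, 40.6, 47.3, 38.5 and 33.7 FPKM in set 1 and 28.6, 22.1, 21.5, 32.2 and 20.8 FPKM in set 2, and in set 3 64.2, 64.4 and 39.6 FPKM. Rpl39l, the paralogue of Rpl39 known from mouse testis, had the lowest mean over all libraries, at 2.78, 2.35, 4.28, 3.22, 3.64 and 3.51 FPKM in set 1, 4.11, 1.92, 1.85, 3.31 and 5.10 FPKM in set 2 and 4.20, 2.35 and 3.03 FPKM in set 3. Rpl39l had 19 to 55 reads per library in sets 2 and 3, so its differences between times rest on few reads. In sets 2 and 3 Rps27rt, Rpl26 and Rpl30 were lower still. Rps19bp1 measured between 13.6 and 39.1 FPKM over the 14 libraries.

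**Figure D3:**
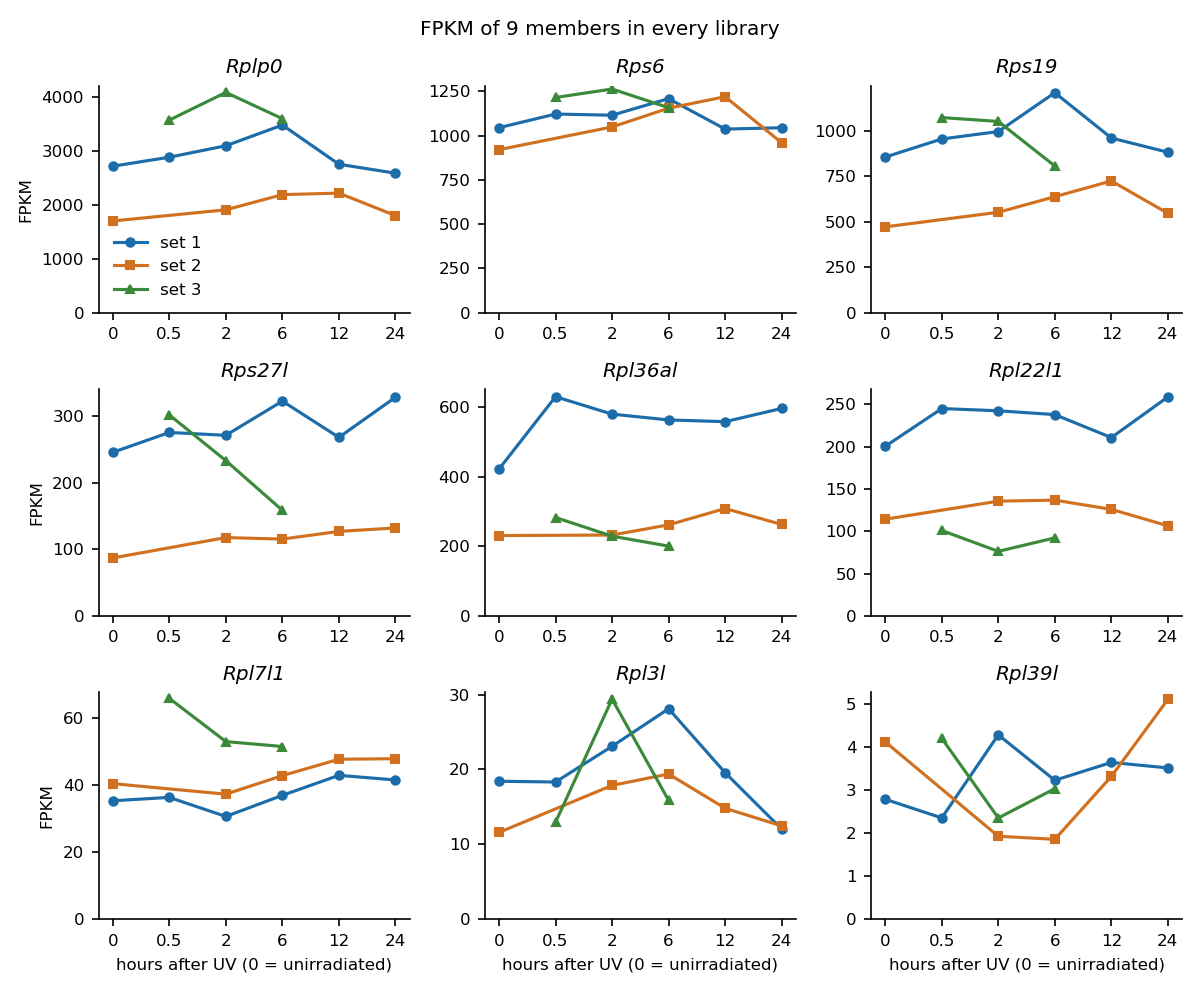
FPKM (y axis, from 0) of 3 core members and 6 paralogues in every library, against hours after UV (x axis, evenly spaced, 0 is unirradiated skin), with 1 line per library set. Rplp0, Rps6 and Rps19 are highest at 6 h in set 1 and at 12 h in set 2, whereas Rps27l is highest at 24 h in both of these sets.

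The members' own levels spanned a wide range and depended on the set. By mean FPKM over all libraries Rpl41, whose product is the smallest ribosomal protein, ranked first with means of 5243 FPKM in set 1, 2203 in set 2 and 4251 in set 3, and Rps26 came next with 5094, 2093 and 3447. Within sets the order differed, with Rpl23a first in set 2, at a mean of 2309 FPKM, and Rplp0 above Rps26 in set 3, at 3749.6 FPKM. Rpl38 had 5058 FPKM in set 1 and 473 FPKM in set 2, a ratio of 10.7, and ranked 3 in set 1 and 65 in set 2. Rpl39 measured 1134, 1177, 1292, 1327, 1005 and 1212 FPKM in set 1, against 156, 161, 161, 229 and 149 FPKM in set 2. The ratio of set 1 to set 2 was related to transcript length: its median was 2.99 over the 9 members with a principal transcript (GENCODE M21) under 500 bases and 1.41 over the 49 members of 800 bases or more. Spearman's rho was -0.65 across the 82 members with both values, which share their libraries.

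**Figure D4:**
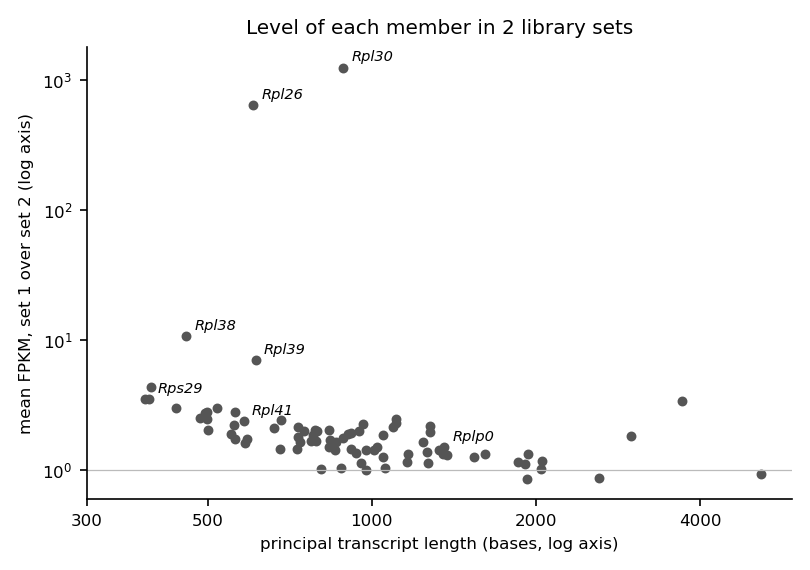
Mean FPKM in set 1 divided by that in set 2 (y axis, log scale) against the length of the longest principal transcript (x axis, log scale, bases), 1 point per member (82 members). Short transcripts have higher ratios (Rpl38 10.7), and Rpl26 and Rpl30, which set 2 lists at or near 0, lie far above the rest.

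A few symbols could not be compared between sets. Rpl26, a large subunit protein that binds p53 mRNA in human cells, measured 7.78, 17.6, 10.7, 19.5, 22.2 and 28.2 FPKM in set 1 but was listed at 0 in 7 of the 8 libraries of sets 2 and 3, and Rpl30 measured 77.7, 104, 88.6, 87.2, 96.1 and 81.4 FPKM in set 1 and at most 0.358 FPKM in the others. Rps27rt, a retrocopy of Rps27, measured 4169, 4222, 4446, 5601, 4282 and 4157 FPKM in set 1 and was listed at 0 in all 8 libraries of sets 2 and 3, while the joint entry "Rps27,Rps27rt" held 8.08 to 12.2 FPKM in set 1 and 1.43 to 5.11 FPKM in the others. Ribosomal protein genes have many near-identical processed copies, and how the authors' counting placed shared reads is not known, so these levels are uncertain. The cause of the differences between sets was not tested. In set 1 Rpl26 was lowest at 0 h and highest at 24 h, and its change at 24 h was 0.96 ± 0.34 with the set (limma adjusted p = 0.243) and 0.96 ± 2.30 without it. Rpl38, whose level also differs widely between sets, had a change of 0.52 ± 0.23 at 0.5 h with the set (adjusted p = 0.490) and 0.65 ± 1.86 without it. In set 1, the only set with both 0 and 0.5 h, its change was 0.36. Rpl36 was the most erratic core member, at 1045, 988, 1419, 1823, 1380.4 and 972 FPKM in set 1, 354, 428, 383, 241 and 423 FPKM in set 2 and 679.5, 923 and 293 FPKM in set 3.

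Among the genes outside the members with the profile closest to the mean core profile over the 14 libraries were Psmb4, Eif3k, Atp5l and Dpm3, with correlations of 0.94, 0.93, 0.92 and 0.92. Psmb4 encodes a proteasome subunit, Eif3k a subunit of initiation factor 3 and Atp5l a subunit of ATP synthase. In all, 146 genes outside the members had a correlation above 0.8.

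Related gene lists were described in the same fit with the set. Of all genes it called 0.1, 2.79, 4.32, 3.81 and 2.19% at 0.5, 2, 6, 12 and 24 h against 0 h. For UV 24 h against UV 6 h it called 3.11%. Mitochondrial ribosomal proteins, which build the separate ribosome of that organelle, had medians of 0.29, 0.17, 0.02, 0.11 and 0.13 over 77 genes, with 1 called against 0 h, Mrpl9, which rose at 6 h (0.54 ± 0.10, limma adjusted p = 0.0236). Mrpl36 was the 1 gene of this list called for UV 24 h against UV 6 h (0.59 ± 0.12, adjusted p = 0.0309). Without the set the mitochondrial medians were 0.51, 0.30, 0.10, 0.11 and 0.13, and 0 of 77 were called. At 6 h the cytosolic members had a median of 0.23 with the set and 0.27 without it, against mitochondrial medians of 0.02 and 0.10. The 22 other genes known for terminal oligopyrimidine mRNAs had medians of 0.15, 0.13, 0.18, 0.15 and 0.10, and 0 of 22 were called. Without the set theirs were 0.18, -0.03, 0.11, 0.15 and 0.10, so that the 2 h median changed sign, with 10 of 22 genes above 0 against 19 of 22 with the set.

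Among 9 translation elongation genes, Eef2k, the kinase that inhibits elongation factor 2, fell at 2 h (-0.59 ± 0.12, limma adjusted p = 0.0324), 12 h (-0.58 ± 0.12, adjusted p = 0.0302) and 24 h (-0.63 ± 0.12, adjusted p = 0.0269). It measured 16.8, 10.3, 10.02, 10.5, 10.5 and 9.43 FPKM in set 1, 14.3, 10.3, 12.0, 9.55 and 9.86 FPKM in set 2 and 15.3, 12.7 and 14.3 FPKM in set 3. Of 41 initiation factors Eif1, which helps to select the start codon, rose at 6 h (0.50 ± 0.12, adjusted p = 0.0439), and of 19 regulators of ribosomal protein synthesis Myc, a transcription factor that drives ribosome production, rose at 6 h (0.54 ± 0.13, adjusted p = 0.0431). Mycn, its relative, was the 1 regulator called for UV 6 h against UV 2 h, where it rose (0.74 ± 0.13, adjusted p = 0.0256). Of 14 p53 genes Cdkn1a, the cell cycle inhibitor p21, rose at 12 h (0.81 ± 0.19, adjusted p = 0.0402). The same fit called 2.79, 4.32, 3.81 and 2.19% of all genes at 2, 6, 12 and 24 h, and 2.09% for UV 6 h against UV 2 h. Single calls in lists of these sizes therefore do not set the lists apart from all genes. Of 14 ribosome quality control genes 0 were called. None of these genes was called by limma without the set, where the changes of Eef2k, Eif1, Myc and Cdkn1a at these times were of the same sign at adjusted p-values of at least 0.600.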

How the data were processed

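The authors deposited 1 table of 14 columns, taken here as FPKM from the kind of values and from Cufflinks being named, since no header names the unit. TopHat2 2.1.0, Cufflinks 2.2.1 and the build mm10 come from the submitters' processing notes. The sources used here give no annotation, gene filter or strand setting. Headers give the time but no replicate number, so each column is an unnumbered replicate of its time.

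The table was used without further filtering. limma 3.58.1 (R 4.3.3) was fitted on log2(FPKM + 1) of all 10980 genes in all 14 libraries, with an intensity trend, two-sided, Benjamini-Hochberg adjustment over all genes and a threshold of 0.05, and was tested on simulated data. Fold changes on this scale understate the change of low genes. The planned fit has group means alone (8 residual degrees of freedom, median residual SD 0.335); the other adds the library set as a block (6, 0.155).

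Sets rest on the number format (at most 6 digits in set 1, up to 17 in the others) and header style; the 0 h library of set 2 was placed by its number format and by its mean correlation of 0.964 with set 2 and 0.888 with set 3. Deviations from the time means correlated at 0.411 to 0.895 in the 28 same-set pairs of different times. They correlated at -0.859 to 0.492 in 53 pairs of different sets. At a time with 2 libraries the 2 deviations mirror each other, so the values between sets are not separate evidence of pairing. The placing of the 0 h library of set 2 by correlation also makes this check partly built in.

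In sets 2 and 3 whole reads were recovered from ratios of FPKM for 10954 genes, 100% of those above 0, within a relative tolerance of 1e-14. They are the smallest whole numbers that give these ratios and were used for depth alone. A count test on them was not run, as no such depth is known for set 1.

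Named with values were members past the threshold, the 3 largest changes per subgroup and time with the set, and a list of members of known role; members at an unadjusted p of 0.05, the members with the highest and lowest correlations and those with odd levels were added after their values were seen. Members and gene lists were chosen with earlier results of these data known. Promoter windows are RefSeq's (GRCm38.p6); loci and transcript lengths are GENCODE M21's (GRCm38, the assembly of mm10). Some items that these rules would name are not reported here.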

Additional observations from a re-analysis of the deposited data

How the results depend on the processing

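The median residual SD was 0.335 without the library set and 0.155 with it. With the set as a replicate block the count of members called stayed at 0 in all 8 tests, and the member medians were 0.29, 0.23, 0.23, 0.22 and 0.07 at 0.5, 2, 6, 12 and 24 h, 0.00 for UV 6 h against UV 2 h and -0.16 for UV 24 h against UV 6 h. A pseudocount of 0.1, a filter at a mean of 5 FPKM, median-of-ratios and quantile scaling and limma without a trend or with robust estimation also called 0 members in each test. With the block, quantile normalization gave a 0.5 h median of 0.14, against 0.29 with the block alone. The planned fit, without either, gave 0.60. The cause of the shift under quantile normalization was not tested. Scaling each library by its FPKM outside the members was chosen after seeing the data. With the block it gave member medians of 0.24, 0.15, 0.18, 0.16 and 0.0096 against 0 h. The medians of all genes fell with it, to -0.05, -0.14, -0.06, -0.08 and -0.04. Median-of-ratios scaling with the block gave member medians of 0.30, 0.32, 0.29, 0.28 and 0.08. All-gene medians were then between -0.0015 and 0.04. The core members alone gave 0.61, 0.27, 0.27, 0.22 and 0.07 without the block. The core without Rpl26, Rpl30, Rpl37rt and the joint Rps27 entry, also chosen after seeing the data, gave 0.29, 0.23, 0.24, 0.22 and 0.07 with it.

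Leaving out each library in turn, with and without the block, gave 0 to 1 members called for any change over time and for UV 24 h against UV 6 h, and 0 in the other tests. The calls were Rpl7l1 without the 6 h library of set 3, and Rpl3l without the 2 h or the 6 h library of set 3. The medians against 0 h ranged over 0.15 to 1.07, -0.16 to 0.81, -0.11 to 0.77, -0.16 to 0.68 and -0.33 to 0.53 at 0.5, 2, 6, 12 and 24 h. The highs came without the 0 h library of set 1, and the lows without that of set 2 or, at 24 h, without the UV 24 h library of set 1. With the block the same ranges were 0.20 to 0.49, 0.17 to 0.31, 0.10 to 0.34, 0.07 to 0.39 and 0.03 to 0.12. Single members that changed sign did so without the block: Rpl26 (-1.38 to 3.30), Rps27l (-0.24 to 1.25) and Rpl36al (-0.25 to 0.93) at 24 h, Rpl36al (-0.14 to 1.01) and Rpl38 (-1.04 to 2.35) at 0.5 h, Rpl36al (-0.024 to 0.84) and Rps19 (-0.037 to 0.82) at 12 h, and Rps27a (-0.090 to 0.66) at 6 h.

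Depth is unknown in set 1, so no counting error can be given there. A library that is left out of a group of 2 leaves 1 sample, which is then assumed to vary like the others.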
